A study of Mus musculus with 16 samples.

Results

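The genes described here were 10 genes of the megakaryocyte and erythroid lineages, chosen by symbol from the 32286 genes of the deposited matrices: Gata1, Klf1, Gfi1b, Fli1, Zfpm1, Nfe2, Pf4, Itga2b, Vwf and Gp9. These genes and the gene lists used below were chosen with earlier results of these data known. Counts of them that changed are therefore not an independent test. They were followed in hematopoietic stem and progenitor cells (HSPCs) of mouse bone marrow (BM), sorted as lineage-negative, CD45+ and c-Kit+ (CD117+) cells and measured by single-cell RNA sequencing in 6 libraries. In the WT group (labelled ctrl), 2 libraries came from non–tumor-bearing WT BALB/c mice, which the study describes as untreated. In the vehicle group, 2 libraries came from mice that carried the 2208L tumor, a Trp53-null mammary tumor of BALB/c background transplanted into WT BALB/c mice, and that got the carrier without drug. In the IACS-70654 group, 2 libraries came from mice with the same tumor that got IACS-70654, an inhibitor of the bromodomain of CREB-binding protein (CBP) and P300. The tumor-bearing mice were dosed in cycles of 3 days on and 2 days off over 7 days according to the series record, although the study's text gives a shorter period for BM. All mice were female, and the labels name no other allele. Cells of 3 mice were pooled for a sample, and nothing says that the 2 libraries of a group came from separate pools, so that the p-values measure only the spread between these libraries, which may be technical. WT and vehicle mice differ in both the tumor and the vehicle. The sort removes Ter119+ cells and requires CD45, so that maturing red cells are outside what was measured.

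Erythroid and megakaryocytic cells share a bipotent progenitor. GATA1 is the transcription factor that drives both programs, with ZFPM1 (FOG-1) as its cofactor and GFI1B as a repressor that both lineages need. KLF1 turns on globin and red cell membrane genes, FLI1 turns on megakaryocytic genes, and the pair FLI1 and KLF1 oppose each other in the choice between the lineages. NFE2, the p45 subunit of a basic leucine zipper factor, is needed for platelet release. The other members are products of the megakaryocyte. PF4 is a chemokine stored in platelet alpha granules, ITGA2B (CD41) is the alpha chain of the fibrinogen receptor, GP9 is a subunit of the receptor complex for von Willebrand factor, and VWF is that adhesive protein itself. CBP and P300 are acetyltransferases that serve as coactivators of GATA1 and other factors of these lineages.

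RefSeq promoter windows (build GRCm38.p6, the build called mm10) were matched by symbol for 7 of the 10 genes. The 250 bases before the RefSeq start site are shown for Pf4, Gp9 and Itga2b, which are megakaryocytic products, and for Gata1, a regulator of both lineages, for comparison. Letters run 5′ to 3′ on the strand of the gene. Capitals mark GATAA on either strand, a motif of the GATA type. They also mark a motif of the ETS type, GGAAG, on either strand.
Pf4 (chr5:90772185-90772434, plus strand): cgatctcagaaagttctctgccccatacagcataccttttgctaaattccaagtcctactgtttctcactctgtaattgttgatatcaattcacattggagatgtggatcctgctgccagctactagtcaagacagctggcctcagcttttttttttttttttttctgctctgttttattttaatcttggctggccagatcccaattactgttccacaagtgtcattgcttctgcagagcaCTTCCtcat
Gp9 (chr6:87777820-87778069, plus strand): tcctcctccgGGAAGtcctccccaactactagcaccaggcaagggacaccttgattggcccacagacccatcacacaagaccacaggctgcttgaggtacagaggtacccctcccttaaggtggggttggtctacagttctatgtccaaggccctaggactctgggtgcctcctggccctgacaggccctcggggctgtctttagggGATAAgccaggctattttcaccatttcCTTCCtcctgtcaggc
Itga2b (chr11:102469884-102470133, minus strand): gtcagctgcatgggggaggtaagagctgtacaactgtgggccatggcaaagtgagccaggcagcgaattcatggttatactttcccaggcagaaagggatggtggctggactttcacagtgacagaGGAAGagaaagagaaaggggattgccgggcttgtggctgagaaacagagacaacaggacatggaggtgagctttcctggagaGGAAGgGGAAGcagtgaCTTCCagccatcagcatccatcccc
Gata1 (chrX:7967911-7968160, minus strand): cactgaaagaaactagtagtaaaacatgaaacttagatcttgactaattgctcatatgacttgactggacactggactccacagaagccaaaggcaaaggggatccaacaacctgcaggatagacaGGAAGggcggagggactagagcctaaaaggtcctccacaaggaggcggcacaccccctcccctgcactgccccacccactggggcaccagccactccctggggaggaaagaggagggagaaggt
In the Pf4 window, GGAAG was matched once, 9 bases before the start. The Gp9 window held GATAA 43 bases before the start and GGAAG at 240 and 16 bases, whereas the Itga2b window held GGAAG 4 times and no GATAA. The Gata1 window held GGAAG once, 124 bases before the start. GENCODE has a transcript with the same start as the RefSeq windows of Pf4, Itga2b and Gata1, and for Gp9 its start lies 2 bases away. For Itga2b and Gata1, GENCODE also has a transcript that starts 239 and 10161 bases farther upstream, so that these 2 windows lie at least partly inside the gene as GENCODE draws it. Over the 7 windows, GATAA was found in those of 3 genes (Klf1, Gfi1b and Gp9), GGAAG in 6, the KLF-type letters CACCC in 5 and the NFE2-type letters TGACTCA in 0. On both strands, these letters occurred in 22.6%, 64.1%, 52.0% and 4.46% of all 32851 windows of the same length. No pair of matches in the windows of the 7 genes overlapped. A match is a run of letters in this window and was tied to no measurement here.

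In the GENCODE vM21 annotation of the same build, each of the 10 genes is protein coding, under the same Ensembl identifier as in the files. The megakaryocytic products lie on chromosome 5 (Pf4, 90772435 to 90773383), chromosome 11 (Itga2b, 102453297 to 102470122) and chromosome 6, which holds Vwf (125546774 to 125686679) and Gp9 (87778072 to 87779768) far apart. Gata1 lies on chromosome X (7959260 to 7978071), Klf1 (84901928 to 84905291) and Zfpm1 (122282141 to 122337251) on chromosome 8, Gfi1b on chromosome 2 (28609450 to 28621982), Fli1 on chromosome 9 (32422204 to 32542861) and Nfe2 on chromosome 15 (103248212 to 103258403).

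The libraries held 2836 to 7517 cells after filtering, with a median of 6712 to 9512 unique molecular identifiers (UMIs, each 1 captured RNA molecule) per cell, and no barcode was shared between any pair of libraries. Cells were clustered without the 10 genes, and clusters were named from marker lists that did not hold them. The megakaryocyte-like class consisted of 2 clusters, both led by Pf4 and Cavin2, and 1 of them, called the cycling cluster here, also had the cell cycle genes Ckap2l, Nusap1 and Pimreg among its 10 leading genes. The class held 416 and 348 cells in the WT libraries, 350 and 140 in the vehicle libraries, and 792 and 482 in the IACS-70654 libraries. The erythroid-like class held 314 to 954 cells a library and the bipotent class 75 to 478. The top 10 genes of the bipotent cluster held none of the markers it was named from. On that marker list it scored 1.223, below the 1.747 and 1.793 of the megakaryocyte-like clusters, so that its name is only a label. The leading genes of the megakaryocyte-like clusters included Pf4, Vwf and Itga2b, although none of these took part in clustering or naming.

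Pf4, Vwf, Gp9 and Itga2b marked the megakaryocyte-like class and Klf1 the erythroid-like class, whereas the other regulators were spread more widely (plot of levels by class). Levels are CPM (the share of the class total on a scale of 1e6) of the UMIs summed over a class in a library, given as the median and range of 6 libraries, and since the classes are clusters of the same cells, these differences between classes are a description without a test. Pf4 was highest in megakaryocyte-like cells, with a median of 3660 CPM (3377 to 5035), and the next class, stem-like cells, had 38.8 CPM (28.3 to 55.7). The megakaryocyte-like class held 92.1% of the Pf4 UMIs of all kept cells, between 90.6% and 94.0% in single libraries. It also held 84.6% of the Vwf UMIs, 60.7% of the Gp9 UMIs and 59.8% of the Itga2b UMIs. Klf1 was highest in erythroid-like cells, at a median of 162 CPM (156 to 168), followed by bipotent cells at 88.6 CPM (63.5 to 121) and megakaryocyte-like cells at 22.0 CPM (17.5 to 25.2), and these 3 ranges did not overlap. Of the Klf1 UMIs, 85.8% came from erythroid-like cells.

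**Figure D1:**
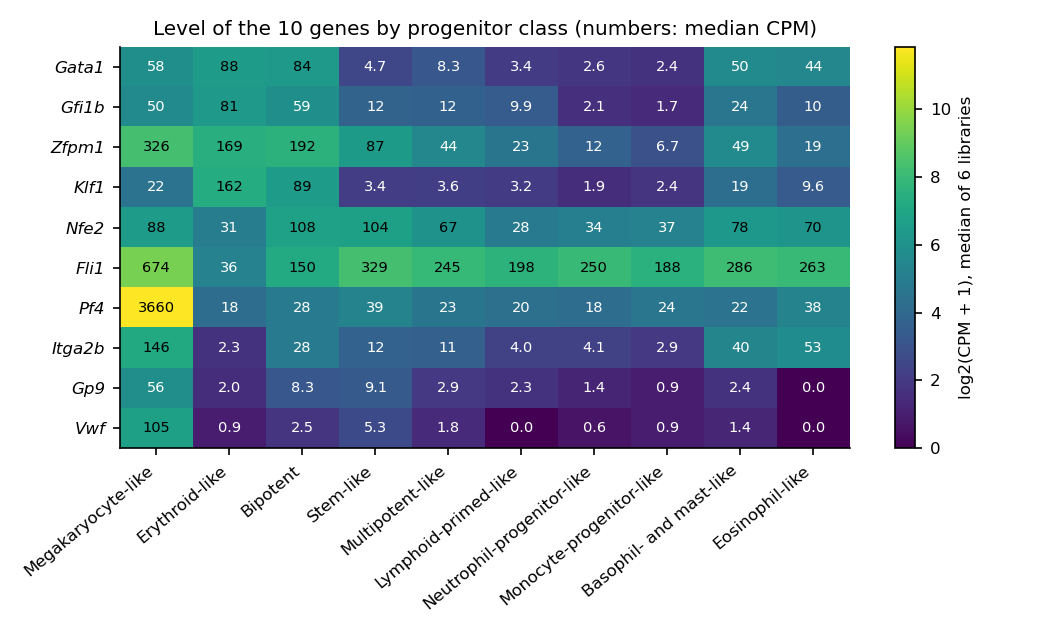
Median level of each gene (rows) in each progenitor class (columns) over 6 libraries; the color is log2(CPM + 1) and the number in each cell is the median CPM. Pf4, Itga2b, Gp9 and Vwf stand out in the megakaryocyte-like column and Klf1 in the erythroid-like column, whereas Fli1 had at least 36.4 CPM in every column.

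The shared regulators were less restricted. Gata1 had a median of 88.3 CPM in erythroid-like cells (77.2 to 93.4), 83.9 CPM in bipotent cells (73.7 to 93.6) and 58.0 CPM in megakaryocyte-like cells (52.2 to 67.9), and the ranges of the first pair overlapped. Gfi1b followed the same order, with medians of 81.5, 59.3 and 49.9 CPM, and neighbors in this order overlapped. Zfpm1 was highest in megakaryocyte-like cells at 326 CPM (302 to 383), above the bipotent class at 192 CPM (154 to 260) without overlap, and the bipotent and erythroid-like ranges overlapped. Fli1 was also highest in megakaryocyte-like cells, with 674 CPM (652 to 804), and lowest in erythroid-like cells, with a median of 36.4 CPM. The ranges of Nfe2 in bipotent, stem-like, megakaryocyte-like and basophil- and mast-like cells overlapped from each class to the next. Erythroid-like cells, with a median of 31.25 CPM (24.66 to 35.09), lay below all of these without overlap, whereas megakaryocyte-like cells had 75.7 to 96.82 CPM.

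To determine whether the genes changed within megakaryocyte-like cells of treated mice, UMIs were summed per library and tested in edgeR over all genes. A gene was called where its log2 change exceeded 0.5 in size and its adjusted p was below 0.01. With IACS-70654 compared with vehicle, 3 of the 10 genes were called lower (Vwf, Gp9 and Pf4) and 0 were called higher, beside 4.72% of 10895 tested genes called lower and 3.25% called higher. All of the 3 are megakaryocytic products, and none of the 5 regulators Gata1, Klf1, Gfi1b, Zfpm1 and Nfe2 was called. Among the genes with a positive change, only Zfpm1 had an unadjusted p under 0.05, and DESeq2 also called 3 lower and 0 higher.

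Vwf fell furthest. Its level was 107 and 104 CPM in the WT libraries, 187 and 187 CPM in the vehicle libraries, and 39.5 and 48.0 CPM in the IACS-70654 libraries, so that the treated libraries lay below both other groups. The mean was 187 ± 0.102 CPM in vehicle and 43.8 ± 5.99 CPM in IACS-70654 (SD, n = 2 libraries), and the log2 change was −2.20 ± 0.10 (SE, edgeR adjusted p = 8.60e-63). Gp9 had 60.6 and 59.2 CPM in the vehicle libraries and 34.3 and 27.4 CPM in the IACS-70654 libraries. The WT libraries, with 61.4 and 52.6 CPM, were near vehicle. The log2 change of Gp9 with IACS-70654 was −0.99 ± 0.14 (SE, edgeR adjusted p = 9.97e-10). Pf4 had 5035 and 4847 CPM in vehicle and 3673 and 3647 CPM in IACS-70654, a log2 change of −0.50 ± 0.03 (SE, edgeR adjusted p = 4.42e-47), just past the minimum size of a call. Without vehicle replicate 1 it was −0.47 and without IACS-70654 replicate 2 it was −0.50, both just under that size, whereas Vwf stayed between −2.31 and −2.03 and Gp9 between −1.20 and −0.87 without any 1 library.

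Fli1 and Itga2b passed the p threshold below the minimum size. Fli1 had 795 and 804 CPM in vehicle and 652 and 679 CPM in IACS-70654 (log2 change −0.33 ± 0.04, adjusted p = 2.51e-11). Itga2b had 173 and 174 CPM in vehicle and 139 and 150 CPM in IACS-70654 (log2 change −0.34 ± 0.08, adjusted p = 3.62e-04). For both, the treated libraries were close to the WT libraries, which had 668 and 652 CPM of Fli1 and 136 and 141 CPM of Itga2b.

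The erythroid and shared regulators showed no call in these cells, although Klf1 was called lower when the class was drawn at a resolution of 0.5 (−0.52, adjusted p = 0.00824) or with the bipotent class added (−0.55, adjusted p = 0.00561). At a resolution of 0.5 no class was named bipotent, and the megakaryocyte-like class held 541 and 229 cells in vehicle and 881 and 540 in IACS-70654. Both settings thus took in cells like those of the bipotent class, which had more Klf1. That class numbered 181 and 88 cells in vehicle and 122 and 75 in IACS-70654. The part of this mix in the values was not tested. Gata1 had 57.2 and 52.2 CPM in vehicle and 67.9 and 58.3 CPM in IACS-70654, which did not overlap, with a log2 change of 0.14 ± 0.12 (adjusted p = 0.486). Gfi1b had 45.9 and 49.6 CPM in vehicle and 58.7 and 52.0 CPM in IACS-70654 (log2 change 0.19 ± 0.14, adjusted p = 0.355). Zfpm1 had 327 and 325 CPM in vehicle and 375 and 383 CPM in IACS-70654 (log2 change 0.15 ± 0.06, adjusted p = 0.0582). The values of Klf1 (17.5 and 25.2 against 23.9 and 20.2 CPM) and Nfe2 (88.3 and 75.7 against 96.8 and 88.1 CPM) overlapped between the groups. A difference in response between the products and these factors was not tested.

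**Figure D2:**
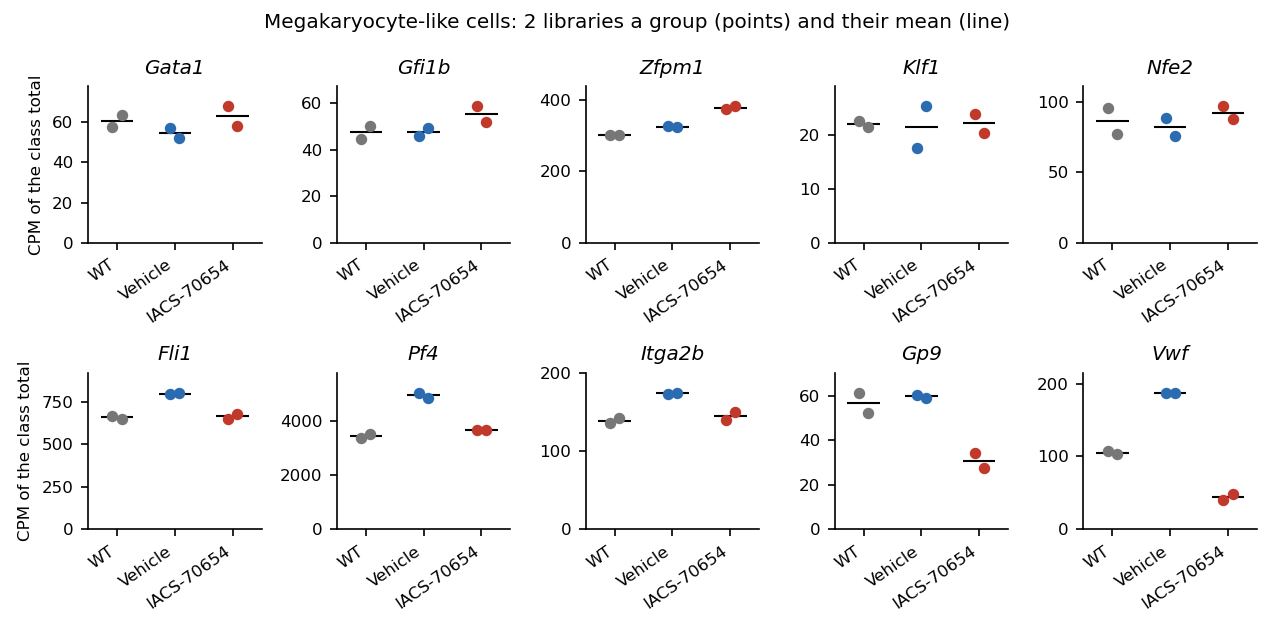
Level of each gene in megakaryocyte-like cells (CPM of the class total, each axis from 0) in the WT, vehicle and IACS-70654 libraries; points are the 2 libraries of a group and lines their mean. Vwf fell from 187 CPM in vehicle to 43.8 CPM in IACS-70654, and Gp9 from 59.9 to 30.9 CPM.

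In tumor-bearing mice given vehicle, Vwf was higher than in WT mice, and with IACS-70654 it was lower than in WT mice. In vehicle compared with WT, Vwf was the only one of the 10 genes called, and it was higher by a log2 change of 0.80 ± 0.09 (edgeR adjusted p = 5.83e-15), where 0.734% of all tested genes were called higher. Pf4 was higher by 0.49 ± 0.03 (adjusted p = 6.65e-44) and Fli1 by 0.24 ± 0.05 (adjusted p = 1.65e-05), both below the minimum size, and Itga2b differed by 0.29 ± 0.08 (adjusted p = 0.0172). This comparison and that of IACS-70654 with vehicle share the vehicle libraries, so the opposite signs are not independent of each other. In IACS-70654 compared with WT, Vwf was lower by a log2 change of −1.40 ± 0.11 (adjusted p = 2.79e-29) and Gp9 by −0.96 ± 0.14 (adjusted p = 3.61e-10). These were 2 of the 10 genes, beside 4.55% of all tested genes called lower. Zfpm1 differed by 0.23 ± 0.06 (adjusted p = 6.50e-04), below the minimum size. Pf4 in treated mice, with 3673 and 3647 CPM, was near the 3377 and 3513 CPM of WT (log2 change −0.01 ± 0.03). The values against WT also moved with the class border. Pf4 changed by 0.32 in the cluster that was not cycling and −0.43 in the cycling cluster, and was called higher at a resolution of 0.5 (0.64) and with the bipotent class added (0.60). At these last settings Gp9 was not called (−0.40, adjusted p = 0.0149, and −0.42, adjusted p = 0.0111), whereas Vwf was still called lower (−0.76 and −0.80). Klf1 was also called lower at both (−0.85 and −0.87), beside −0.07 in the class as reported, and Itga2b was called higher at a resolution of 0.5 (0.50). Vwf was not called higher in vehicle than in WT when the class was drawn at a resolution of 2 (0.37, adjusted p = 0.0402) or with the 10 genes among the clustering genes (0.31, adjusted p = 0.173). In that comparison, Pf4 was called higher in the cluster that was not cycling (0.66), at a resolution of 0.5 (0.89) and with the bipotent class added (0.90). Itga2b was called higher at both of the latter (0.61 each), and Fli1 with the bipotent class added (0.50).

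Vwf was called lower under each of the ways to draw the class that are plotted here, and Pf4 was not (plot of the change by class border). Fitting the 2 clusters alone or with the bipotent class was chosen after seeing the data. Within the cluster that was not cycling, Vwf changed by −2.002 and Gp9 by −1.01, and within the cycling cluster by −2.58 and −1.04, all called. The groups differed in their mix, since the cycling cluster held 176 and 65 of the 350 and 140 cells in vehicle but 268 and 176 of 792 and 482 in IACS-70654. Pf4 changed by −0.34 and −0.70 in them, and only the latter was called, as was Itga2b in the cycling cluster (−0.68). When the bipotent class was added to the megakaryocyte-like class, Vwf changed by −1.999, Gp9 by −0.79 and Pf4 by −0.30. At a clustering resolution of 2, the bipotent class was larger and the megakaryocyte-like class smaller. The latter then held 217 and 78 cells in vehicle, beside 350 and 140 as reported, and 270 and 182 in IACS-70654, beside 792 and 482. The treated libraries thus lost the larger part of the class and the vehicle libraries did not, and the part of this in the values was not tested. In the smaller class, Vwf changed by −1.52 and Gp9 by −0.59 whereas Pf4 changed by 0.11 (adjusted p = 0.124), without a call. With the 10 genes allowed among the clustering genes, the values were −1.44 for Vwf, −0.55 for Gp9 (adjusted p = 0.0182) and 0.17 for Pf4. Fli1 and Itga2b also turned positive under this pair of settings. The bipotent class, enlarged in this way, had Vwf at −2.39 and −1.73, Klf1 at −0.92 and −0.64, Pf4 at 0.92 and 1.76 and Zfpm1 at 0.51 and 0.66 under the respective settings, all called. Gp9 was not lower in that class (0.07 and 0.22, adjusted p = 0.925 and 0.701). The direction for Pf4, Fli1 and Itga2b within the megakaryocyte-like class therefore depended on which cells were counted in it, and under these settings that for Vwf and Gp9 did not.

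**Figure D3:**
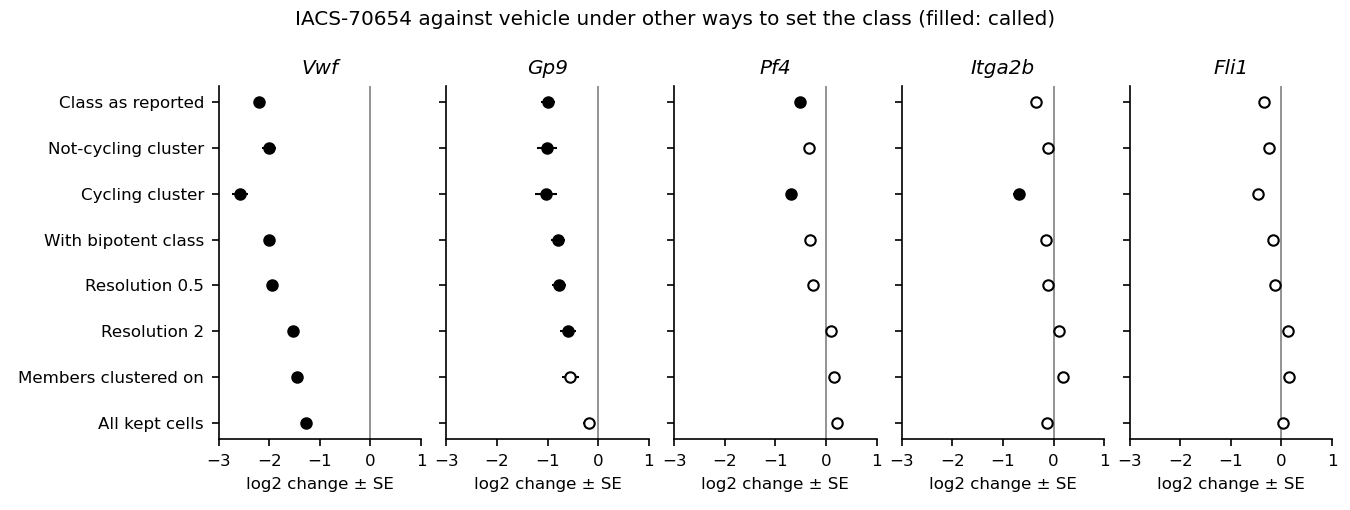
Log2 change with IACS-70654 compared with vehicle (horizontal axis, ± SE) of 5 megakaryocytic genes in the class as reported and under other ways to choose the cells, from single clusters to all kept cells; filled points were called. Vwf lay between −2.58 and −1.28 over the rows, whereas Pf4 ranged from −0.70 to 0.22.

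Vwf was also lower in all cells together, where no class border enters. Summed over every kept cell, Vwf had 9.73 and 9.22 CPM in vehicle and 3.77 and 4.53 CPM in IACS-70654, a log2 change of −1.28 ± 0.10 (edgeR adjusted p = 1.15e-08). Vwf was the only one of the 10 genes called lower, beside 6.72% of 15750 genes. Pf4, with 241 and 227 CPM in vehicle and 278 and 291 CPM in IACS-70654, changed by 0.22 ± 0.04 (adjusted p = 5.34e-04), below the minimum size. In such sums, a different number of megakaryocytic cells and a different amount of RNA per cell cannot be told apart. The share of cells in the class was also tested between groups, but it is not reported, since markers that named the class changed too.

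Fewer megakaryocyte-like cells had a Vwf molecule with IACS-70654 than with vehicle. After each cell was thinned to 3000 UMIs, Vwf was found in 31.0% and 31.3% of megakaryocyte-like cells in the vehicle libraries and in 8.44% and 8.67% in the IACS-70654 libraries, with exact 95% intervals of 26.1% to 36.2% and 23.6% to 39.9% against 6.47% to 10.8% and 6.08% to 11.9%. In WT, 18.1% and 18.9% of cells had a Vwf molecule. Without thinning, the shares were 53.1% and 51.4% in vehicle, 12.0% and 13.5% in IACS-70654 and 32.0% and 29.0% in WT. Thinning left out 105 and 90 cells in IACS-70654 and 6 to 18 in the other libraries, because the median depth of megakaryocyte-like cells was 4910.5 and 4807 UMIs in IACS-70654 and 7692.5 and 7956.5 UMIs in vehicle. Gp9 was found in 14.8% and 15.7% of vehicle cells and 8.44% and 8.67% of IACS-70654 cells, and Pf4 in 64.6% and 61.9% against 46.4% and 50.3%. Neutrophil-progenitor-like cells, which should lack these products, had a Pf4 molecule in 2.40% to 5.30% of thinned cells (median depth 10840 to 12900 UMIs) and a Vwf molecule in at most 0.629%. The level of free RNA itself was not measured. These intervals cover counting error only.

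Other platelet genes were also lower with IACS-70654 than with vehicle. Their list was chosen with earlier results of these data known, so that its counts are a description. Of a list of 14 platelet and megakaryocyte products without the 10 genes, 12 passed the filter on low counts in megakaryocyte-like cells, 9 were called lower with IACS-70654 compared with vehicle and 0 higher (4.72% and 3.25% of all tested genes), with a median log2 change of −0.70 beside 0.01 over all tested genes. DESeq2 called 3 of them lower and gave no adjusted p for 3 others of the 9, and the count in edgeR was 3 to 5 with other clusterings. Among the members that fell the most were Selp (P-selectin of the alpha granule membrane, −2.21 ± 0.24), and Gp1ba (−1.59 ± 0.38) and Gp5 (−1.43 ± 0.15), which are subunits of the same receptor complex as GP9. P2rx1, an ATP-gated channel of platelets, changed by −1.17 ± 0.24 and Ptgs1, the platelet cyclooxygenase, by −0.73 ± 0.12. Selp had 28.8 and 31.3 CPM in vehicle and 6.87 and 6.35 CPM in IACS-70654, below the 11.1 and 11.2 CPM of WT. Itgb3, the partner chain of ITGA2B, was not called (0.26 ± 0.10), with 94.1 and 89.6 CPM in vehicle and 113 and 121 CPM in IACS-70654. In vehicle compared with WT, 4 of the 12 were called higher (Selp, Mmrn1, Itgb3 and Clec1b) and 0 lower, with a median of 0.45, beside 0.734% and 0.468% of all tested genes. This count was 0 at a resolution of 2 and with the 10 genes among the clustering genes, and 1 to 5 without 1 library. In IACS-70654 compared with WT, 6 of the 12 were called in either direction, beside 4.55% of all tested genes called lower and 3.10% called higher. Levels went both ways in this comparison. Itgb3 had 60.4 and 54.2 CPM in WT and 113 and 121 CPM in IACS-70654, and Cd9 had 308 and 314 against 469 and 475 CPM. In contrast, Gp5 had 51.4 and 50.2 CPM in WT and 23.7 and 23.8 CPM in IACS-70654, and Selp was also lower.

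**Figure D4:**
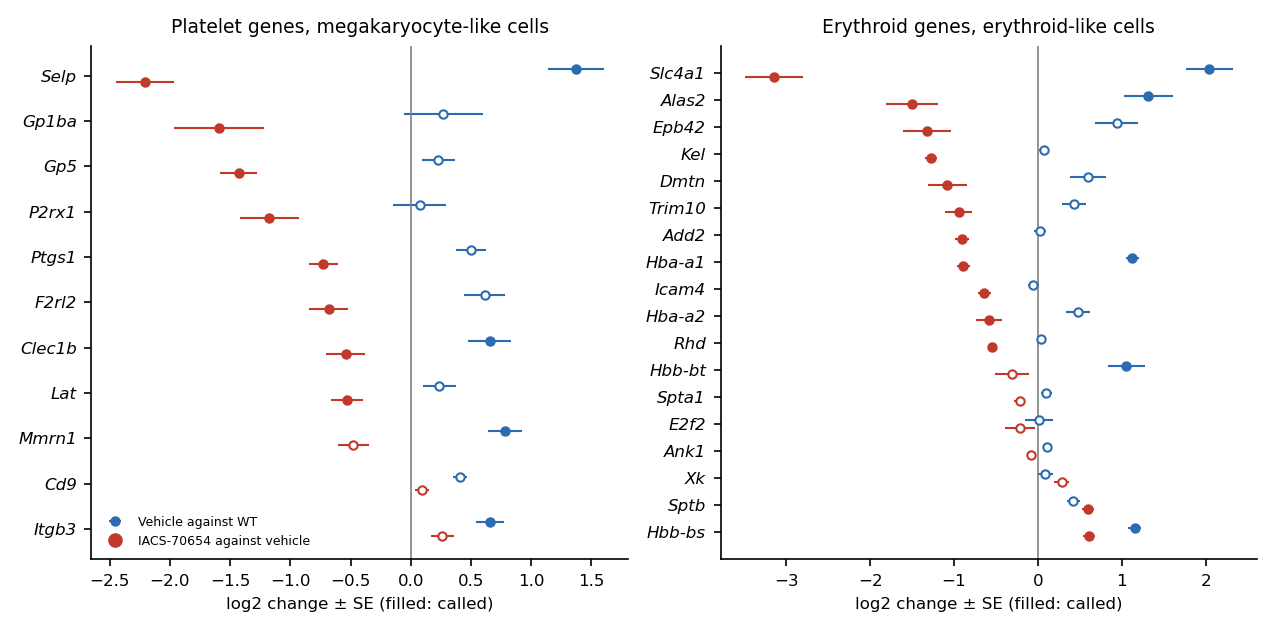
Log2 change (± SE) of platelet products in megakaryocyte-like cells (left) and of erythroid genes in erythroid-like cells (right), for vehicle against WT (blue) and IACS-70654 against vehicle (red), which share the vehicle libraries; filled points were called. Of the genes plotted, 8 of 11 in the left panel and 11 of 18 in the right panel were called lower with IACS-70654.

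Of the 7 markers that named the class, 6 passed the filter and 3 were called lower with IACS-70654 (Treml1, −1.25 ± 0.12, Gp1bb, −1.02 ± 0.24, and Cavin2, −0.99 ± 0.08), and 0 higher, beside 4.72% and 3.25% of all tested genes. Plek (294.4 and 277.6 CPM in vehicle, 352.5 and 348.4 CPM in IACS-70654) and Rab27b (155.7 and 157.5 against 190.1 and 198.4 CPM) rose without a call. The 7 markers summed to 815.6 and 797 CPM in vehicle, 721.3 and 738 CPM in IACS-70654 and 685.5 and 657.8 CPM in WT. Of the 9 markers of stem-like cells, 6 passed and 3 were called lower in megakaryocyte-like cells (Slamf1, −1.44 ± 0.13, Mecom, −1.12 ± 0.08, and Hlf, −0.58 ± 0.16). The sum of all 9 was 1197 to 1271 CPM in vehicle and 1335 to 1347 CPM in IACS-70654. Most of this sum was Meis1, with 710.2 and 776.2 CPM in vehicle and 1020 and 1044 CPM in IACS-70654. The 8 markers of erythroid-like cells summed to 469 and 480 CPM in WT, 347 and 345 CPM in vehicle and 544 and 510 CPM in IACS-70654, and of 6 tested Car1, a carbonic anhydrase, and Ermap were called higher (1.10 ± 0.10 and 0.96 ± 0.30). The 6 markers of T and NK cells summed to 138 and 129 CPM in vehicle and 34.1 and 22.6 CPM in IACS-70654, nearly all of it from Nkg7, while Cd3e had at most 0.347 CPM. The 6 markers of bipotent cells summed to 2725 and 2754 CPM in WT, 2958 and 3075 CPM in vehicle and 2492 and 2598 CPM in IACS-70654, below both other groups. The 6 macrophage markers summed to at most 3.17 CPM in each library. The part of these cells, and of the lower depth with IACS-70654, in the results was not tested.

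Among a list of 19 other regulators, 1 was called lower and 2 were called higher in megakaryocyte-like cells of IACS-70654 compared with vehicle mice. The former was Mafg (a small Maf partner of NFE2, −0.71 ± 0.15). The latter were Gata2 (the GATA factor of early progenitors, 0.56 ± 0.08) and Ep300 (which encodes P300, 0.56 ± 0.12). Over all tested genes, 4.72% were called lower and 3.25% higher. Gata2 had 119 and 126 CPM in vehicle and 185 and 191 CPM in IACS-70654. The median of the 19 was 0.14.

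In erythroid-like cells, none of the regulators among the 10 genes was called, although Gata1 and Nfe2 passed the p threshold, and 12 of 19 genes of an erythroid list were called lower. Whether the regulators and the listed genes differed in response was not tested. With IACS-70654 compared with vehicle, 0 of the 10 genes were called lower (4.41% of 12132 tested genes) and Pf4 alone was called higher (1.60% of genes). Of the genes with a negative change, Nfe2 and Gp9 had an unadjusted p under 0.05, and DESeq2 called 0 of the 10 in either direction. Klf1 had 166 and 168 CPM in vehicle, 157 and 156 CPM in IACS-70654 and 160 and 164 CPM in WT (log2 change of IACS-70654 against vehicle −0.09 ± 0.05, adjusted p = 0.158). Gata1 had 81.5 and 77.2 CPM in vehicle and 93.4 and 92.2 CPM in IACS-70654, a log2 change of 0.21 ± 0.06 (adjusted p = 0.00628) below the minimum size. Gfi1b overlapped between the groups, with 73.3 and 80.2 against 71.3 and 82.8 CPM, whereas Zfpm1 had 170 and 192 CPM in vehicle and slightly less, 169 and 168 CPM, in IACS-70654 (−0.07 ± 0.05, adjusted p = 0.314). Nfe2 differed by −0.36 ± 0.10 (adjusted p = 0.00581), with 32.4 and 35.1 CPM in vehicle and 26.4 and 24.7 CPM in IACS-70654.

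Pf4 was called higher in erythroid-like cells, where the share of cells with a molecule was like that of cells that should lack it. Pf4 had 11.8 and 15.4 CPM in vehicle and 34.0 and 19.3 CPM in IACS-70654 (log2 change 1.16 ± 0.24, adjusted p = 4.77e-04), and the WT libraries spanned the same range, with 36.2 and 15.8 CPM. The call was lost without vehicle replicate 1 (0.89, adjusted p = 0.146), without IACS-70654 replicate 1 (0.59, adjusted p = 0.159) and in DESeq2. A Pf4 molecule was found in 3.50% to 6.13% of thinned erythroid-like cells, a range that overlapped that of neutrophil-progenitor-like cells. The latter had 10.08 to 22.69 CPM of Pf4, which 1 WT and 1 IACS-70654 library of erythroid-like cells exceeded. The level of free RNA was not measured, so that the change of Pf4 is not read as one of expression. Pf4 was also called lower in vehicle compared with WT (1 of 10 genes called lower, −1.11 ± 0.24, beside 0.132% of all genes), which was lost without WT replicate 1 (−0.33) and without vehicle replicate 1 (−0.83), in a comparison in which 0 of the 10 genes were called higher beside 0.470%. In IACS-70654 compared with WT, Gp9 was called lower (1 of 10, −1.49 ± 0.37, beside 4.26% of genes), from 37 and 23 UMIs in WT to 12 and 6 UMIs in IACS-70654. This call was lost without WT replicate 1 (−1.34), without IACS-70654 replicate 1 (−1.51) and without IACS-70654 replicate 2 (−1.48).

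An erythroid list had 19 genes present in the files, most of them genes of hemoglobin, heme or the red cell membrane, together with the cell cycle factor E2f2 (−0.22 ± 0.18, adjusted p = 0.426) and Trim10 (−0.95 ± 0.16, called lower). All 19 passed the filter in erythroid-like cells, and 12 were called lower and 2 higher with IACS-70654 compared with vehicle, beside 4.41% and 1.60% of all tested genes, with a median of −0.63 beside −0.0025 over all tested genes. Without vehicle replicate 1, 7 were called lower. Slc4a1 (band 3, the anion exchanger, −3.15 ± 0.34), Alas2 (the first enzyme of erythroid heme synthesis, −1.51 ± 0.31) and Epb42 (−1.32 ± 0.28) changed the most, at levels of at most 7.73 CPM. Kel, a membrane glycoprotein, had 89.5 and 94.3 CPM in vehicle and 35.7 and 41.0 CPM in IACS-70654 (−1.28 ± 0.07), and the WT libraries had 82.3 and 89.9 CPM. Hba-a1 had 143 and 113 CPM in vehicle and 72.6 and 71.0 CPM in IACS-70654 (−0.89 ± 0.08), close to the 53.1 and 69.1 CPM of WT. In contrast, the beta globin Hbb-bs was called higher, with 341 and 288 CPM in vehicle and 492 and 488 CPM in IACS-70654 (0.61 ± 0.07), and so was the spectrin Sptb (0.59 ± 0.07). In vehicle compared with WT, 5 of the 19 were called higher (Slc4a1, Alas2, Hbb-bs, Hba-a1 and Hbb-bt) and 0 lower, beside 0.470% and 0.132% of all tested genes, and 2 were called higher without vehicle replicate 1 and 3 without WT replicate 1. In IACS-70654 compared with WT, 6 of the 19 were called in either direction, beside 4.26% of all tested genes called lower and 1.98% called higher. Levels went both ways here too. Hbb-bs had 118 and 172 CPM in WT and 492 and 488 CPM in IACS-70654, and Sptb had 35.8 and 38.5 against 78.9 and 70.5 CPM. Kel was lower, as given above. The near-identical Hba-a1 and Hba-a2, and Hbb-bs and Hbb-bt, can share reads, so that values of single globin genes are uncertain. The class joined several clusters in unlike mixes. The cluster led by Hbb-bs and Hba-a1 held 84 of 898 and 67 of 688 cells in WT. It held 122 of 802 and 41 of 314 in vehicle and 170 of 954 and 84 of 475 in IACS-70654. The part of this mix in the values of the erythroid list was not tested. Among the 8 markers of erythroid-like cells, Cldn13 and Rhag were called lower with IACS-70654 and 0 higher, with a summed level of 5473 to 5694 CPM in vehicle and 5539 to 5621 CPM in IACS-70654. In erythroid-like cells, the 6 markers of bipotent cells summed to 418 and 438 CPM in WT, 386 and 400 CPM in vehicle and 225 and 238 CPM in IACS-70654, below both other groups. The 6 multipotent markers summed to 672 and 568 CPM in vehicle and 442 and 490 CPM in IACS-70654, and the 6 T and NK cell markers to 40.6 and 26.8 CPM against 17.3 and 15.4 CPM. The 6 markers of mature neutrophils summed to 163 and 37.3 CPM in vehicle and 131 and 134 CPM in IACS-70654, and the 6 macrophage markers to at most 2.11 CPM. Their part in these results was not tested. Of the list of 19 other regulators, Gata2 (−1.07 ± 0.13) and Lyl1 (−0.76 ± 0.09), a partner of GATA factors in early progenitors, were called lower in erythroid-like cells. In the same cells 0 were called higher, beside 4.41% of all tested genes called lower and 1.60% called higher. Gata2 had 20.6 and 21.2 CPM in vehicle and 9.85 and 9.90 CPM in IACS-70654, the reverse of the direction in megakaryocyte-like cells. The log2 response of Gata2, singled out after its values were seen, differed by −1.63 ± 0.16 (erythroid-like minus megakaryocyte-like cells) in the interaction test of class and treatment (edgeR adjusted p = 8.63e-16), and was −1.68 to −1.61 without any 1 library.

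**Figure D5:**
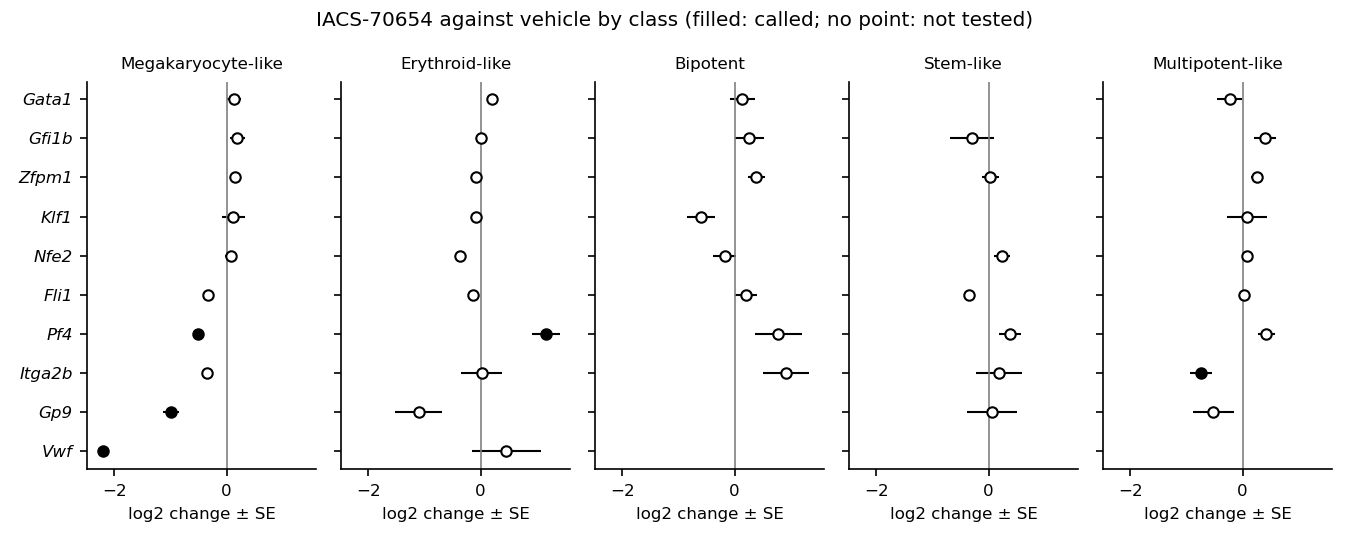
Log2 change with IACS-70654 compared with vehicle (± SE) of the 10 genes in 5 progenitor classes; filled points were called, and a gene without a point did not pass the filter on low counts in that class. Filled points for Vwf, Gp9 and Pf4 lie below 0 in megakaryocyte-like cells, 1 for Pf4 lies above 0 in erythroid-like cells, and 1 for Itga2b lies below 0 in multipotent-like cells.

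Outside these 2 classes, Itga2b was called lower with IACS-70654 compared with vehicle in 3 classes, of which only basophil- and mast-like cells kept the call in DESeq2. In basophil- and mast-like cells, it had 50.2 and 48.0 CPM in vehicle and 22.0 and 16.9 CPM in IACS-70654, a log2 change of −1.40 ± 0.23 (adjusted p = 4.69e-07). The class joined 2 clusters in unlike mixes, since 516 of 675 and 205 of 284 cells in vehicle but 80 of 271 and 48 of 160 in IACS-70654 lay in the cluster led by Prss34 and Mcpt8, and the others in a cluster led by Gzmb. Of the 8 markers that named the class, 6 were called lower and 1 higher in this comparison, and 3 lower and 2 higher in IACS-70654 compared with WT. The part of this mix and of these markers in the values was not tested. Klf1 was also called lower there, with 89 and 31 UMIs in vehicle and 10 and 6 UMIs in IACS-70654 (−1.30 ± 0.35, adjusted p = 0.00323), a call that was lost without vehicle replicate 1 (−1.18), IACS-70654 replicate 1 (−1.26) or IACS-70654 replicate 2 (−1.34). These were 2 of the 10 genes, of which 8 were tested, beside 4.56% of all genes called lower. In multipotent-like cells, Itga2b changed by −0.73 ± 0.20 (1 of the 9 genes tested, beside 3.42%), with 12.7 and 12.3 CPM in vehicle and 7.80 and 7.41 CPM in IACS-70654. Of the 3 clusters of this class, the one led by cell cycle genes held 256 of 653 and 95 of 321 cells in vehicle and 502 of 2199 and 304 of 1285 in IACS-70654. It was not called in DESeq2, at a resolution of 0.5, with no upper limit on genes, or without vehicle replicate 1 (−0.72), IACS-70654 replicate 1 (−0.77) or IACS-70654 replicate 2 (−0.71). In neutrophil-progenitor-like cells it changed by −0.997 ± 0.29 (1 of the 8 tested, beside 3.04%), at levels of 2.18 to 5.41 CPM in these 4 libraries. An Itga2b molecule was found there in 0.662% to 2.20% of thinned cells, a range that overlapped the 0.375% to 1.29% of erythroid-like cells of the same libraries, and the level of free RNA was not measured, so that this change is not read as one of expression. It was not called in DESeq2, with library totals, at a resolution of 2, with the 10 genes among the clustering genes, with the top doublet scores left out, or without vehicle replicate 1 (−1.10), vehicle replicate 2 (−0.95) or IACS-70654 replicate 1 (−0.64).

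Against WT, 5 more calls were made in these 3 classes, in comparisons that share the WT libraries. In neutrophil-progenitor-like cells, Zfpm1 had 20.2 and 21.4 CPM in WT, 9.77 and 7.13 CPM in vehicle and 14.0 and 10.6 CPM in IACS-70654, so that both tumor-bearing groups lay below WT. The log2 change was −1.21 ± 0.22 in vehicle (edgeR adjusted p = 2.28e-05, 1 of 8 genes tested, beside 0.46% of all genes called lower) and −0.76 ± 0.20 in IACS-70654 (adjusted p = 0.00492, beside 2.11%). The call in vehicle was lost with the 10 genes among the clustering genes (−0.57), and DESeq2 gave no adjusted p. The call in IACS-70654 was lost in DESeq2, with library totals, with no upper limit on genes, in each other clustering, and without WT replicate 1 (−0.80), WT replicate 2 (−0.72) or IACS-70654 replicate 2 (−0.61). In IACS-70654 compared with WT, Itga2b was also lower in multipotent-like cells (−0.80 ± 0.22, adjusted p = 0.00439, 1 of 9 genes, beside 2.55%), a call lost in DESeq2, at a resolution of 0.5, and without WT replicate 1 (−0.46), IACS-70654 replicate 1 (−0.84) or IACS-70654 replicate 2 (−0.78). In basophil- and mast-like cells, Klf1 (−1.68 ± 0.36, adjusted p = 2.67e-04) and Itga2b (−1.06 ± 0.26, adjusted p = 0.0019) were lower in the same comparison (2 of 8 genes, beside 2.07%), and DESeq2 called neither. The call of Klf1 was lost without WT replicate 1 (−1.42) or IACS-70654 replicate 1 (−1.64), and that of Itga2b without WT replicate 2 (−0.89), IACS-70654 replicate 1 (−1.30) or IACS-70654 replicate 2 (−0.94).

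Between IACS-70654 and vehicle in bipotent and stem-like cells, 0 of the 8 and 0 of the 7 genes tested were called in either direction in edgeR, beside 1.43% and 1.19% of all genes. Before adjustment, 3 genes in bipotent cells (Klf1, Zfpm1 and Itga2b) and Fli1 in stem-like cells had a p under 0.05, and DESeq2 called 0 in both, among the genes to which it gave an adjusted p. Fli1 in stem-like cells passed the p threshold alone (−0.35 ± 0.08, adjusted p = 0.00256), with 367 and 354 CPM in vehicle and 300 and 278 CPM in IACS-70654. Vwf could not be followed in stem-like cells, where it had 2 to 13 UMIs a library.

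Whether a gene responded differently in erythroid-like and megakaryocyte-like cells was tested directly, as the interaction of class and treatment with the library as a block. The response of Vwf was higher by 2.66 ± 0.53 on the log2 scale in erythroid-like cells (edgeR adjusted p = 5.61e-05) and that of Pf4 by 1.67 ± 0.15 (adjusted p = 3.34e-17), and both rest on low erythroid-like values, since Vwf had 2 to 23 UMIs a library there and Pf4 was found in a share of cells like that of neutrophil-progenitor-like cells. For Vwf the test no longer passed without IACS-70654 replicate 1 (2.17, adjusted p = 0.0700). Zfpm1 (−0.22 ± 0.08, adjusted p = 0.0323) and Nfe2 (−0.45 ± 0.15, adjusted p = 0.0221) responded lower in erythroid-like cells. These 2 did not pass without vehicle replicate 2 (−0.15 and −0.34), IACS-70654 replicate 1 (−0.26 and −0.44) or IACS-70654 replicate 2 (−0.19 and −0.45). The other 6 genes, Gp9 among them, did not pass at 0.05, a threshold passed by 15.3% of all genes. Between stem-like and megakaryocyte-like cells, Pf4 differed by 0.90 ± 0.20 (adjusted p = 5.07e-04), a threshold passed by 2.63% of all genes, and it did not pass without vehicle replicate 1 (0.63) or IACS-70654 replicate 1 (0.48).

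Summed over all kept cells, Klf1, Gata1 and Gfi1b were lower in both tumor-bearing groups than in WT mice, and none of them was called within erythroid-like cells. Below the minimum size, Gfi1b was lower there by −0.22 ± 0.06 both in vehicle and in IACS-70654 compared with WT (edgeR adjusted p = 0.0454 and 0.00683). Klf1 had 68.0 and 66.8 CPM in WT, 34.2 and 31.5 CPM in vehicle and 36.1 and 33.9 CPM in IACS-70654, with log2 changes of −1.03 ± 0.04 in vehicle and −1.01 ± 0.04 in IACS-70654 compared with WT (adjusted p = 7.83e-13 and 6.36e-13). Gata1 changed by −1.03 ± 0.05 and −0.80 ± 0.05, and Gfi1b by −1.14 ± 0.04 and −0.89 ± 0.04. In each of these comparisons 5 of the 10 genes were called lower, beside 3.35% of genes in vehicle and 5.76% in IACS-70654 compared with WT, and the comparisons share the WT libraries. The genes besides Klf1, Gata1 and Gfi1b were Zfpm1 and Gp9 in vehicle and Vwf and Gp9 in IACS-70654. Erythroid-like cells numbered 898 of 3875 and 688 of 3039 kept cells in WT, 802 of 6571 and 314 of 2836 in vehicle, and 954 of 7517 and 475 of 4317 in IACS-70654. As a share of the cells in progenitor classes, tested in edgeR over 10 classes, the erythroid-like class was lower in vehicle than in WT by a log2 change of −0.82 ± 0.07 (SE, adjusted p = 1.03e-11) and the bipotent class by −2.04 ± 0.11 (adjusted p = 3.42e-17), and 0 of the markers that named each class were called in this comparison. Bipotent cells numbered 478 and 419 in WT and 181 and 88 in vehicle. That class had a median of 88.6 CPM of Klf1 and 150.5 CPM of Fli1, beside 22.0 and 673.5 CPM in megakaryocyte-like cells. It scored below the megakaryocyte-like clusters on the list that named it, so that a lower share of bipotent progenitors is not shown. Since the classes share 1 total, fewer cells of these classes and more cells of other classes cannot be told apart from shares. The tests of these shares for IACS-70654 are not reported, since Cldn13 and Rhag, which named the erythroid-like class, and Apoe, which named the bipotent class, changed with it.

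Across the sums of 10 classes and 6 libraries with at least 20 cells, 59 in all, genes were ranked by Pearson's r of log2(CPM + 1) with a member among 8547 genes, as a description without a p, since these sums share libraries. Closest to Vwf were Cavin2, which was also a marker used for naming (r = 0.915), Pf4 (0.881), Rap1b (0.833), Gucy1a1 (0.812) and Tpst2 (0.779). Cavin2 (0.913) and Rap1b (0.902) were closest to Pf4 too, followed by Mvb12b (0.884), Vwf (0.881) and Bmp2k (0.840). Among the genes closest to Klf1 were Ces2g (0.890), Steap3 (0.881), Car1 (0.881) and Tspo2 (0.878). Gata1 was closest to Icam4 (0.905), Optn (0.871), Gfi1b (0.869), Cd55 (0.868) and Dpf3 (0.867).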

How the data were processed

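Cells of mouse bone marrow sorted as lineage-negative, CD45+ and c-Kit+ were measured by droplet scRNA-seq in 6 libraries of 3 groups. The deposited values are UMI counts per gene and cell, which the authors made with Cell Ranger against mm10 according to the submitters' notes, and the matrix headers name CellRanger 7.2.0. The notes also name Seurat, without its role, and the sample tag features in the matrices were left out here. Libraries held 27427163 to 68415534 gene UMIs over all barcodes.

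Cells with over 200 and under 6000 genes and at most 10% mitochondrial UMIs were kept. Cells were clustered in scanpy 1.11.5 (2000 variable genes without the 10 genes described, 30 principal components, 20 neighbors, Leiden resolution 1) and clusters were named from marker lists. Scrublet called at most 0.153% of the barcodes of a library doublets, which is too few to be trusted, and leaving out the 5% of cells with the highest scores was run as an alternative. UMIs were summed per class and library, for libraries with at least 20 cells of the class, and tested with the edgeR 4.0.16 quasi-likelihood test (R 4.3.3, TMM, filterByExpr, all 6 libraries in 1 fit, Benjamini-Hochberg adjustment over all genes tested), where a call needed an adjusted p below 0.01 together with a log2 change larger than 0.5 in either direction. SEs are the log2 change over the square root of its F statistic. The test was checked on simulated data. CPM are of the class total without TMM factors. A nominal p from 2 libraries a group reflects the spread that the fit estimates over all genes.

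The members and gene lists were chosen with earlier results of these data known. Named are the 10 genes and, of each list, up to 6 called genes with the largest change, besides some chosen after their values were seen (Nkg7 and Cd3e, and, for IACS-70654 compared with vehicle, Itgb3, Plek, Rab27b, Meis1, Hba-a1, Hbb-bs and Sptb). For IACS-70654 compared with WT, Itgb3, Cd9, Gp5, Selp, Hbb-bs, Sptb and Kel were also chosen in this way. In each of the lists of platelet products and erythroid genes, 1 gene is counted but not reported here by itself. Likeness was ranked among genes with a mean of at least 10 CPM. Shares of cells in 10 classes were tested between groups with edgeR, but of the megakaryocyte-like, erythroid-like and bipotent classes only the latter 2 in vehicle compared with WT are reported, since markers that named these classes changed in the other comparisons. Alternatives were DESeq2 1.42.0, other scaling, no filter, other thresholds, other clusterings, no upper limit on genes, a replicate block, the 4 libraries compared alone and leaving out each library. Promoter windows came from RefSeq (GRCm38.p6), and gene positions from GENCODE vM21.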

Additional observations from a re-analysis of the deposited data

Results flagged for a closer look

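For 5 genes the response to IACS-70654 compared with vehicle differed between classes by the interaction test in edgeR, with adjusted p under 0.05. Between erythroid-like and megakaryocyte-like cells, the log2 response of Vwf differed by 2.66 and that of Pf4 by 1.67, and the responses of Zfpm1 and Nfe2 by −0.22 and −0.45. Vwf had at most 1.78 CPM in erythroid-like cells, too little to tell a response there from background. The response of Gata2, which is not one of the 10 genes, differed by −1.63. Between stem-like and megakaryocyte-like cells, the response of Pf4 differed by 0.90. Of these 6 differences, those of Gata2 and of Pf4 between erythroid-like and megakaryocyte-like cells passed without any 1 library, the latter in a range of 1.10 to 1.93, although Pf4 was found in a share of erythroid-like cells like that of neutrophil-progenitor-like cells, which should lack it. All were tested only in the classes as reported, and the direction of Pf4 in megakaryocyte-like cells depended on which cells were counted in that class. The causes were not tested.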

How the results depend on the processing

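Vwf was called lower with IACS-70654 compared with vehicle in megakaryocyte-like cells and in all kept cells under every alternative run, and leaving out 1 library gave −2.31 to −2.03 and −1.39 to −1.13. In megakaryocyte-like cells, Gp9 was called lower except with the 10 genes among the clustering genes (−0.55). Pf4 lost its call with the cluster that was not cycling alone (−0.34), library totals only (−0.44), no filter (−0.48), resolution 0.5 (−0.25), the bipotent class added (−0.30) and the top doublet scores left out (−0.48), ranged from −0.53 to −0.47 without 1 library, and reversed at resolution 2 (0.11) and with the 10 genes among the clustering genes (0.17).

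At these last 2 settings Fli1 (0.12 and 0.16) and Itga2b (0.11 and 0.18) also reversed. Of genes that were not called in the class as reported, Gata1 reversed at these settings (−0.16 and −0.24) and without IACS-70654 replicate 1 (range without 1 library −0.00089 to 0.23). Klf1 reversed with the cluster that was not cycling (−0.033), with the 10 genes among the clustering genes (−0.59), at resolution 0.5 (−0.52) and 2 (−0.51), with the bipotent class (−0.55), and was called lower at resolution 0.5 and with the bipotent class. It also reversed without IACS-70654 replicate 1 (−0.03) or vehicle replicate 1 (−0.23; highest 0.30). Nfe2 reversed in the cycling cluster (−0.10), with the bipotent class (−0.0041) and without IACS-70654 replicate 1 (−0.0088; highest 0.23). In erythroid-like cells Gfi1b, at 0.0023, reversed with the 10 genes clustered on (−0.0058), the replicate block (−0.0089), resolution 0.5 (−0.00077), the top doublet scores left out (−0.019), and without IACS-70654 replicate 2 (−0.07) or vehicle replicate 1 (−0.11; highest 0.13).

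With adjusted p under 0.05 and no minimum change, 5 of the 10 genes were lower and 2402 genes were called in megakaryocyte-like cells and 2702 in erythroid-like cells, 4 of the 10 were higher in megakaryocyte-like cells of vehicle compared with WT, 2 were higher and 1 lower in erythroid-like cells with IACS-70654 compared with vehicle, 3 were lower against WT, 2 were lower in vehicle compared with WT, 1 was called in stem-like cells, 8 and 9 were lower over all kept cells in vehicle and IACS-70654 compared with WT, and in vehicle compared with WT 7 platelet products and 8 erythroid genes were higher. With IACS-70654 compared with vehicle, DESeq2 called 322 and 360 genes in megakaryocyte-like and erythroid-like cells. These stood in place of 868 and 729, of which 252 and 14 had no adjusted p there. It called 3 platelet products lower in that comparison, and 3 more had no adjusted p. In vehicle compared with WT, it called 1 platelet product and 2 erythroid genes higher (3 more of each had no adjusted p). With IACS-70654 compared with vehicle, it called 1 of the 10 genes in basophil- and mast-like cells. It called 0 of them in multipotent-like and neutrophil-progenitor-like cells, and 0 in each comparison of erythroid-like cells.

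In megakaryocyte-like cells, the cluster that was not cycling gave 539 called genes, resolution 2 gave 542, the 10 genes clustered on gave 509, with 1 of the 10 genes lower, and leaving out 1 library gave 481 to 869. Platelet products lower numbered 4, 4, 3 and, at resolution 0.5, 5. In vehicle compared with WT, the 10 genes higher were 2 (cluster that was not cycling, library totals), 3 (resolution 0.5), 4 (bipotent class added) and 0 (resolution 2, 10 genes clustered on), and 1 to 2 without 1 library. Platelet products higher were 7 (resolution 0.5, bipotent class added), 1 (cycling cluster) and 0 (resolution 2, 10 genes clustered on), and 1 to 5 without 1 library.

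In erythroid-like cells, 407 to 736 genes were called without 1 library, with 7 to 12 erythroid genes lower and 2 to 5 higher in vehicle compared with WT, where no upper limit on genes gave 3. The call of Pf4 as higher was lost with the top doublet scores left out, and its call as lower in vehicle compared with WT with resolution 0.5 or 2, the 10 genes clustered on and the top doublet scores left out (0 each), and each of these counts and that of Gp9 was 0 to 1 without 1 library. In bipotent cells, resolution 2 and the 10 genes clustered on gave 4 called genes of the 10. In multipotent-like cells the count was 0 with no upper limit on genes and at resolution 0.5, in neutrophil-progenitor-like cells 0 with library totals, resolution 2, the 10 genes clustered on and the top doublet scores left out, and without 1 library 0 to 1 in both and 1 to 2 in basophil- and mast-like cells. With no filter, the differences between classes for Nfe2 (−0.44) and Zfpm1 (−0.22) lost their call. Without 1 library, Vwf ranged from 2.17 to 2.91, Nfe2 from −0.69 to −0.34, Zfpm1 from −0.34 to −0.15 and Pf4 against stem-like cells from 0.48 to 1.07. With TMM factors the mean Vwf level was 109 CPM for WT and 190 CPM for vehicle, and without thinning a Vwf molecule was found in 53.1% and 51.4% of cells (vehicle), 32.0% and 29.0% (WT) or 12.0% and 13.5% (IACS-70654). Except where a setting tests fewer libraries or cells, the cause of these changes was not tested.

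Deviations of same-numbered libraries had correlations of −0.02 to 0.04. Libraries of a group differed little beyond counting error in megakaryocyte-like and erythroid-like cells (chi-square per degree of freedom of 1.088 to 1.365). Counting error pulls such correlations down, so that they cannot exclude a pairing. The replicate block gave 860 called genes in megakaryocyte-like and 749 in erythroid-like cells and called 3 of the 10 genes lower in megakaryocyte-like cells. Depth limits Vwf outside megakaryocyte-like cells, with 2 to 23 UMIs a library in erythroid-like, 2 to 13 in stem-like and 0 to 5 in bipotent cells.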
